A study of Mus musculus with 4 samples.

Results

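The 35 genes described here are Atf4 (activating transcription factor 4), known targets or partners of ATF4, and Eif2ak4, a kinase upstream of it. Their RNA was measured by RNA-seq in cultured mouse peritoneal macrophages with and without Ch25h. They were chosen by gene symbol, and all 35 were found in the deposited table, each on a single locus with no other symbol, among 23735 loci in all. The choice was made with the FPKM of this same genotype comparison in view, so the members' values are given as a description and no list test was run on them. FPKM are fragments per kilobase of transcript, scaled to each library's mapped fragments, so levels can be compared between genes.

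The Ch25h_KO group was labelled ApoE-/-/Ch25h-/- and its control, Ch25h_WT, ApoE-/-/Ch25h+/+, so apolipoprotein E was stated to be absent from both. Ch25h encodes cholesterol 25-hydroxylase, which makes the oxysterol 25-hydroxycholesterol. The mice were C57BL/6 and 6 weeks old, and had received 3% thioglycolate, which recruits macrophages, 3 days before the cells were collected and put into culture in medium with serum. Each group held 2 libraries, with 12 mice stated per group and no statement of how they were pooled, so p-values measure the spread between these libraries only, which may be partly technical.

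Ch25h was 4.25 and 5.53 FPKM in the Ch25h_KO libraries and 63.3 and 65.3 FPKM in the Ch25h_WT libraries. Apoe was 3683 and 3373 FPKM in the Ch25h_KO libraries and 614 and 610 FPKM in the Ch25h_WT libraries, although every library was labelled as lacking it, so the groups also differed at Apoe. All 8 macrophage markers looked for were detected, with the lysozyme gene Lyz2 at 20237 and 19566 FPKM in Ch25h_KO and 19741 and 20537 FPKM in Ch25h_WT. The low values implied a depth of 9570000 to 12400000 fragments per library.

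ATF4 is a bZIP transcription factor at the centre of the integrated stress response. Kinases that sense amino acid shortage, misfolded protein, viral RNA or lack of haem phosphorylate the initiation factor eIF2, which slows translation in general but allows the Atf4 message to be translated, so Atf4 protein need not follow Atf4 mRNA. ATF4 binds DNA with partners such as C/EBP proteins at a composite element, the CARE, and raises genes for amino acid import, amino acid synthesis, tRNA charging and the termination of the stress response. Serine and one-carbon metabolism, which it also drives, supplies purines, glutathione and methyl groups in activated macrophages.

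The composite element was looked for in RefSeq promoter windows of build GRCm38.p6, which run from 250 bases before each annotated start to 50 after it and were matched by symbol only, since the files use mm9. The letters searched were TGATGNAA on both strands (TTNCATCA when read on the other strand), with no mismatch. Windows were held for 30 of the 35 members, and 8 of these genes (26.7%) had a match, against 3.94% of the 16714 genes in the table with a window. Some of these genes became known as ATF4 targets through such elements, so the share is not independent of how the list came about. The narrower TGATGCAA was found in 5 members (16.7%), against 1.02% of genes in the table. The 6 members with a match and the highest mean FPKM follow, on the strand of the gene, 5′ to 3′, with the match in capitals and positions counted from 0 at the annotated start. Each stretch ends at or before the annotated start, or at the end of the match where that lies past the start, as in Slc1a4 and in Trib3, whose match is wholly past it.
Nupr1 (chr7:126625547-126625606, minus strand, match from position -110): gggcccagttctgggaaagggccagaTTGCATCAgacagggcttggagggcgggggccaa
Asns (chr6:7693210-7693258, minus strand, match from position -23): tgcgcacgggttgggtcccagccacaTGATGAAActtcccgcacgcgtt
Chac1 (chr2:119351023-119351082, plus strand, match from position -193): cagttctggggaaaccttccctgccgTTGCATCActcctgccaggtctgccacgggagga
Trib3 (chr2:152344039-152344072, minus strand, match from position 14): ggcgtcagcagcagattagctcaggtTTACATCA
Pck2 (chr14:55540137-55540196, plus strand, match from position -103): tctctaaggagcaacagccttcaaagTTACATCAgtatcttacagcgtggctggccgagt
Slc1a4 (chr11:20332710-20332743, minus strand, match from position -4): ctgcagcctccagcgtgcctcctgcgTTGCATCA

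The other members with a match, Pycr1 and Vldlr, were below 1 FPKM in every library. Among members averaging 1 FPKM or more, the 6 with a match had a median log2 change of 0.33 (range 0.092 to 0.64), the 21 with a window and no match had 0.25 (range -0.28 to 0.51), and the 4 with no window had 0.25. The ranges overlapped, and a match is a string of letters, not a measured binding site.

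Most of the module was higher in Ch25h_KO by a modest amount. Of the 35 members, 31 averaged 1 FPKM or more across the libraries and entered the fit, and 28 of these 31 had both Ch25h_KO libraries above both Ch25h_WT libraries, which held for 23.4% of the 10074 tested loci. A single member, Aldh18a1, had both Ch25h_KO libraries below both Ch25h_WT libraries (30.3% of tested loci), and in Eif2ak4 and Slc1a5 the groups overlapped. The median log2 change on the log2(FPKM + 1) scale was 0.27 over the 31 members and -0.014 over all tested loci. Chac1 alone passed the adjusted threshold of 0.05 in limma, which 0.437% of tested loci passed. At an unadjusted p under 0.05, 21 members were higher (9.38% of all tested loci) and 1 was lower (11.5% of tested loci). With limma's trend and robust options, under which 7.80% of tested loci passed, 20 members passed on the higher side (4.04% of tested loci) and Aldh18a1 on the lower (3.76%). The same comparison chose the members, so these counts only describe them.

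**Figure D1:**
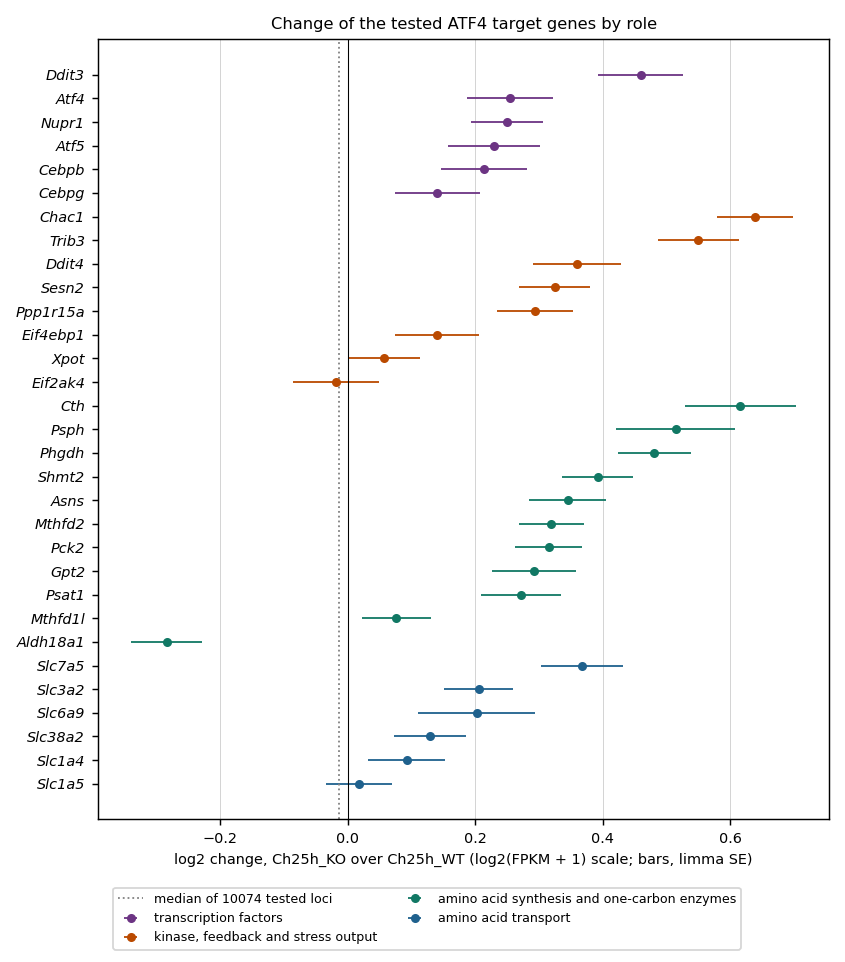
log2 change (Ch25h_KO over Ch25h_WT, log2(FPKM + 1) scale, bars show the limma SE) of the 31 tested members, coloured by role, with the median of all tested loci as a dotted line. Changes run from -0.28 (Aldh18a1) to 0.64 (Chac1), and 29 of the 31 points lie above 0 (4599 of all 10074 tested loci).

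Every transcription factor of the module was higher in Ch25h_KO. Atf4 itself was 368 and 351 FPKM in Ch25h_KO and 289 and 314 FPKM in Ch25h_WT, a ratio of means of 1.19 (log2 change 0.25, SE 0.067, limma adjusted p = 0.153). Both Ch25h_KO values were above both Ch25h_WT values, although the Ch25h_WT libraries differed from each other by more than the Ch25h_KO libraries did. Ddit3, which encodes the stress factor CHOP, was 68.9 and 63.0 FPKM in Ch25h_KO and 48.3 and 47.0 FPKM in Ch25h_WT, the largest ratio among the 6 factors at 1.38 (log2 change 0.46, SE 0.067, limma adjusted p = 0.0883). Atf5, a related factor whose translation is also released by eIF2 phosphorylation, was 78.2 and 73.1 FPKM in Ch25h_KO and 67.2 and 61.6 FPKM in Ch25h_WT.

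The C/EBP partners were higher by less. Cebpb, the most abundant member, was 689 and 640 FPKM in Ch25h_KO and 590 and 556 FPKM in Ch25h_WT (ratio 1.16). Cebpg was 19.5 and 19.6 FPKM in Ch25h_KO and 18.5 and 16.8 FPKM in Ch25h_WT (ratio 1.11), the smallest difference of the 6. Nupr1, a small stress-induced nuclear protein whose promoter stretch is printed above, was 310 and 323 FPKM in Ch25h_KO and 262 and 270 FPKM in Ch25h_WT (log2 change 0.25, SE 0.057, limma adjusted p = 0.126). All 6 factors had both Ch25h_KO libraries above both Ch25h_WT libraries, which held for 23.4% of all tested loci. Their median log2 change was 0.24.

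**Figure D2:**
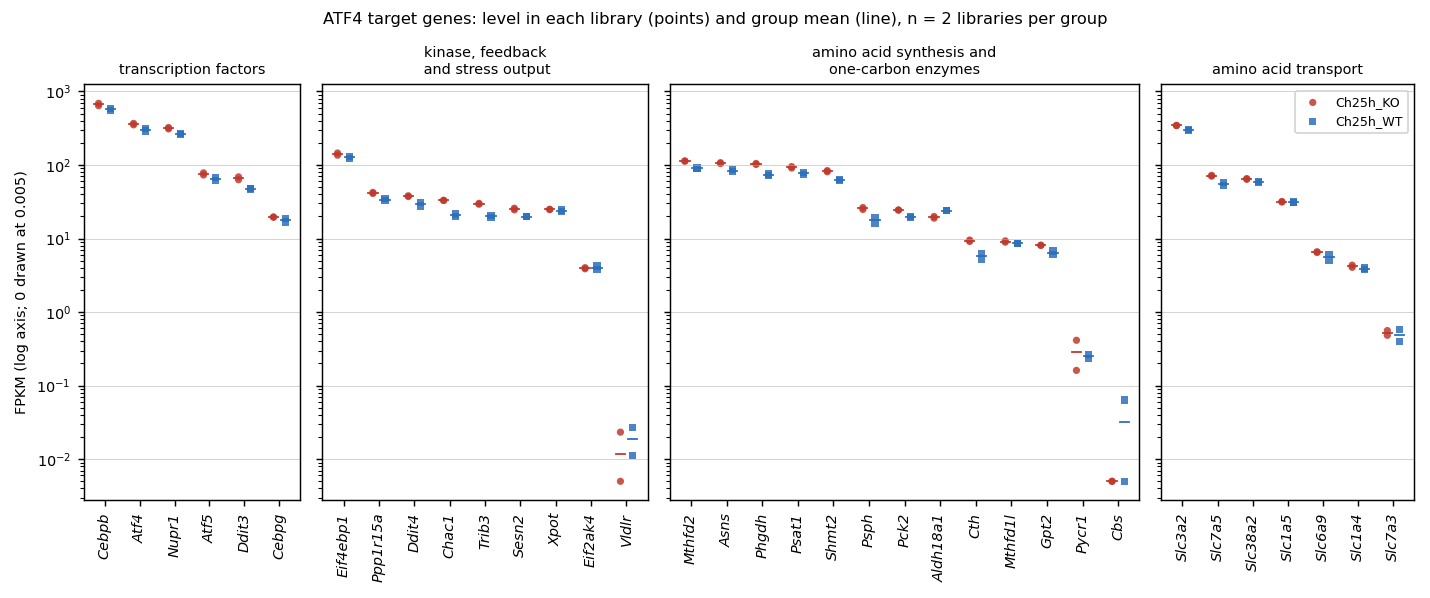
FPKM of all 35 members in each library on a log axis, by role, with Ch25h_KO (circles) to the left of Ch25h_WT (squares) and a line at each group mean of 2 libraries. Levels run from Cebpb, at a mean of 665 FPKM in Ch25h_KO and 573 FPKM in Ch25h_WT, to Cbs, Vldlr, Pycr1 and Slc7a3 below 1 FPKM, and the differences between groups are small beside the differences between genes.

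The kinase, feedback and stress outputs ran from a log2 change near 0 to that of Chac1, the largest of the module. Chac1, which degrades glutathione and is among the most responsive genes downstream of ATF4 and CHOP, rose to 32.9 and 33.1 FPKM in Ch25h_KO, against 21.6 and 20.1 FPKM in Ch25h_WT (ratio 1.58, log2 change 0.64, SE 0.060, limma adjusted p = 0.0434). The Ch25h_KO libraries differed from each other by less than 1 FPKM, and the gap to the Ch25h_WT libraries was over 10 FPKM. That call was lost with any library left out, with a pseudocount of 0.1 and with no filter on low values. Trib3, a pseudokinase that feeds back on ATF4 and CHOP, was 30.1 and 29.3 FPKM in Ch25h_KO and 19.2 and 20.8 FPKM in Ch25h_WT (ratio 1.49, log2 change 0.55, SE 0.064, limma adjusted p = 0.0656).

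Ppp1r15a (GADD34), the phosphatase subunit that reverses eIF2 phosphorylation, was 42.4 and 41.0 FPKM in Ch25h_KO and 34.8 and 32.8 FPKM in Ch25h_WT (ratio 1.23). The inhibitors of mTORC1 signalling were also apart. Sesn2, a leucine sensor, was 25.8 and 24.5 FPKM in Ch25h_KO and 19.96 and 19.8 FPKM in Ch25h_WT (ratio 1.27), and Ddit4 (REDD1) was 37.3 and 38.1 FPKM in Ch25h_KO and 30.6 and 27.7 FPKM in Ch25h_WT (ratio 1.29). Eif4ebp1, a repressor of cap-dependent translation, was 145 and 136 FPKM in Ch25h_KO and 124 and 131 FPKM in Ch25h_WT, with the nearest libraries of the groups close together. Xpot, the exporter of tRNA from the nucleus, was 24.8 and 24.97 FPKM in Ch25h_KO and 24.4 and 23.3 FPKM in Ch25h_WT (log2 change 0.058, SE 0.055), about the size of its error. Eif2ak4 (GCN2), the eIF2 kinase that senses uncharged tRNA, was 4.01 and 3.88 FPKM in Ch25h_KO and 4.24 and 3.79 FPKM in Ch25h_WT, with the Ch25h_KO libraries between the Ch25h_WT libraries.

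**Figure D3:**
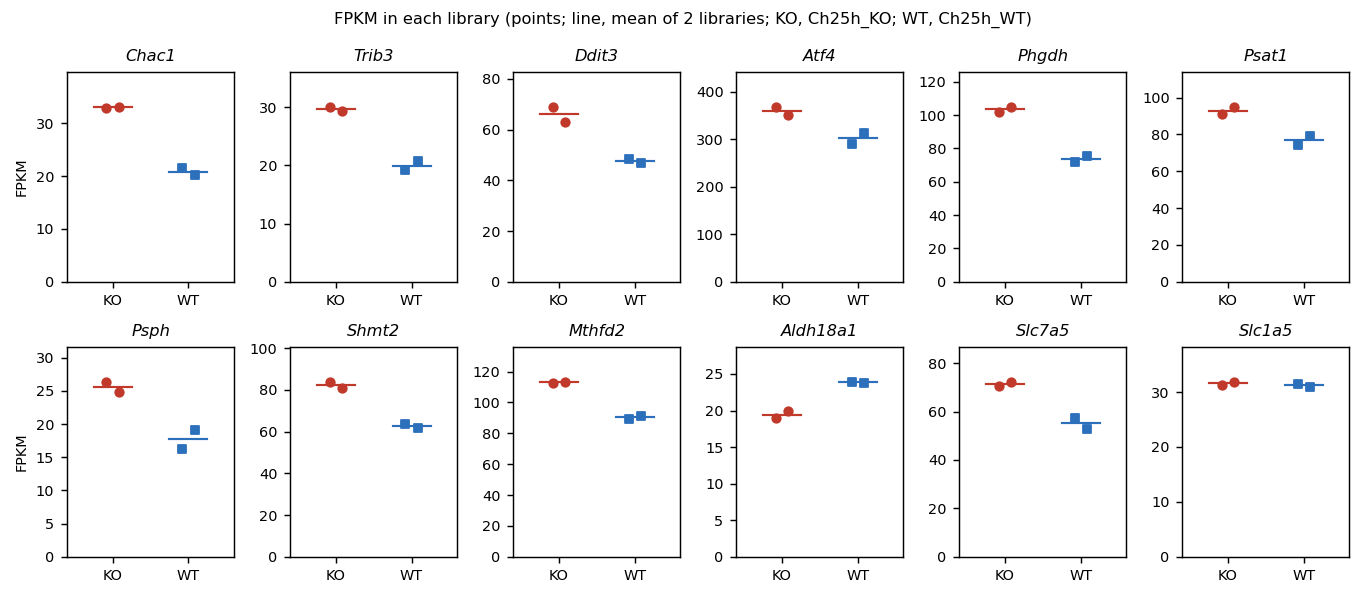
FPKM of 12 members in each library on linear axes from 0, with Ch25h_KO left of Ch25h_WT and a line at each mean of 2 libraries. The 12 were picked from the members by no set rule. The groups are apart in 11 of the 12 panels, on the lower side in Ch25h_KO for Aldh18a1, and overlap for Slc1a5. Of all tested loci, 23.4% had both Ch25h_KO libraries above both Ch25h_WT libraries and 30.3% had both below.

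Every step of serine synthesis from the glycolytic intermediate 3-phosphoglycerate was higher in Ch25h_KO. Phgdh, the first and committed enzyme, was 102 and 105 FPKM in Ch25h_KO and 72.1 and 75.5 FPKM in Ch25h_WT (ratio 1.40, log2 change 0.48, SE 0.057, limma adjusted p = 0.0688). Psat1, the transaminase of the second step, was 90.9 and 94.9 FPKM in Ch25h_KO and 74.3 and 79.3 FPKM in Ch25h_WT (ratio 1.21). Psph, the phosphatase of the last step, was 26.4 and 24.9 FPKM in Ch25h_KO and 16.2 and 19.1 FPKM in Ch25h_WT (ratio 1.45). The level of Psph was below that of Phgdh and Psat1 in every library. All 3 enzymes had both Ch25h_KO libraries above both Ch25h_WT libraries (23.4% of all tested loci).

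The mitochondrial branch of one-carbon metabolism, which takes a carbon unit from serine to formate, was split. Shmt2, which converts serine to glycine, was 83.8 and 80.8 FPKM in Ch25h_KO and 63.5 and 61.5 FPKM in Ch25h_WT (ratio 1.32, log2 change 0.39, SE 0.056, limma adjusted p = 0.0826). Mthfd2, the dehydrogenase and cyclohydrolase that follows, was 113 and 113 FPKM in Ch25h_KO and 89.6 and 91.2 FPKM in Ch25h_WT (ratio 1.25). Mthfd1l, the synthetase that releases formate, was 8.93 and 9.29 FPKM in Ch25h_KO and 8.52 and 8.66 FPKM in Ch25h_WT (log2 change 0.076, SE 0.054, limma adjusted p = 0.471), a far smaller difference.

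Enzymes of other amino acids were higher, with proline synthesis the exception. Asns, which makes asparagine, was 105 and 108 FPKM in Ch25h_KO and 80.6 and 86.1 FPKM in Ch25h_WT (ratio 1.27, log2 change 0.34, SE 0.061, limma adjusted p = 0.104). Cth, which makes cysteine from cystathionine, was low but had the largest ratio of the tested members, with 9.13 and 9.53 FPKM in Ch25h_KO and 5.27 and 6.25 FPKM in Ch25h_WT (ratio 1.62, log2 change 0.62, SE 0.087, limma adjusted p = 0.0826). Cbs, which makes the cystathionine that Cth uses, was listed at 0 in both Ch25h_KO libraries and in Ch25h_WT replicate 2, and at 0.0638 FPKM in Ch25h_WT replicate 1. Pck2, the mitochondrial enzyme that makes phosphoenolpyruvate, was 24.4 and 24.4 FPKM in Ch25h_KO and 19.7 and 19.1 FPKM in Ch25h_WT. Gpt2, the mitochondrial alanine aminotransferase, was 8.09 and 8.10 FPKM in Ch25h_KO and 6.77 and 6.10 FPKM in Ch25h_WT.

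Aldh18a1, which starts proline synthesis from glutamate, was 18.9 and 19.95 FPKM in Ch25h_KO and 23.9 and 23.8 FPKM in Ch25h_WT (ratio 0.814, log2 change -0.28, SE 0.056, limma adjusted p = 0.111). It was the only tested member with both Ch25h_KO libraries below both Ch25h_WT libraries. Pycr1, the mitochondrial reductase that ends the same path, was near its detection limit at 0.161 and 0.414 FPKM in Ch25h_KO and 0.266 and 0.232 FPKM in Ch25h_WT, equal to 5 and 12 fragments in Ch25h_KO and 10 and 7 in Ch25h_WT.

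Amino acid transporters had the lowest median log2 change of the 4 roles, 0.17 over the 6 tested. Slc7a5 (LAT1), which imports leucine and other large neutral amino acids, was 70.5 and 72.2 FPKM in Ch25h_KO and 57.4 and 52.9 FPKM in Ch25h_WT (ratio 1.29, log2 change 0.37, SE 0.064, limma adjusted p = 0.104). Its heavy chain Slc3a2 was 342 and 346 FPKM in Ch25h_KO and 293 and 304 FPKM in Ch25h_WT (ratio 1.15), and was present at several times the level of Slc7a5 in every library. Slc38a2 (SNAT2), an importer of small neutral amino acids, was 65.3 and 63.8 FPKM in Ch25h_KO and 60.3 and 57.5 FPKM in Ch25h_WT.

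The glutamine transporter Slc1a5 (ASCT2) was 31.4 and 31.9 FPKM in Ch25h_KO and 31.4 and 31.0 FPKM in Ch25h_WT, a log2 change of 0.018 with an SE of 0.052 (limma adjusted p = 0.876). Its relative Slc1a4 was 4.06 and 4.34 FPKM in Ch25h_KO and 3.77 and 3.99 FPKM in Ch25h_WT, a difference of the same order as that between replicates. The glycine transporter Slc6a9 was 6.46 and 6.61 FPKM in Ch25h_KO and 6.10 and 5.04 FPKM in Ch25h_WT, where the spread lay within Ch25h_WT. Slc7a3, a transporter of cationic amino acids, was 0.483 and 0.560 FPKM in Ch25h_KO and 0.398 and 0.581 FPKM in Ch25h_WT, equal to 12 and 13 fragments in Ch25h_KO and 12 and 14 in Ch25h_WT. Vldlr, a lipoprotein receptor that ATF4 can induce under stress, had 0 and 2 fragments in Ch25h_KO and 3 and 1 in Ch25h_WT. No difference could be shown at this depth for Pycr1, Slc7a3, Cbs or Vldlr.

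Between libraries of a group, the members typically differed by less than all tested loci in Ch25h_KO and by more in Ch25h_WT. The median absolute log2 difference between replicates was 0.042 in Ch25h_KO and 0.085 in Ch25h_WT for the 31 tested members, and 0.078 in Ch25h_KO and 0.070 in Ch25h_WT for all tested loci. Replicate 2 was the higher library for 19 of the 31 in Ch25h_KO (49.5% of all tested loci) and for 13 of the 31 in Ch25h_WT (45.8%). Taken library by library, the median log2 difference of the 31 members lay between 0.28 and 0.30 in all 4 pairings, and that of all tested loci between -0.022 and -0.010. In those pairings, which share libraries, 28 to 30 of the 31 members were higher in the Ch25h_KO library (44.5% to 47.6% of all tested loci).

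**Figure D4:**
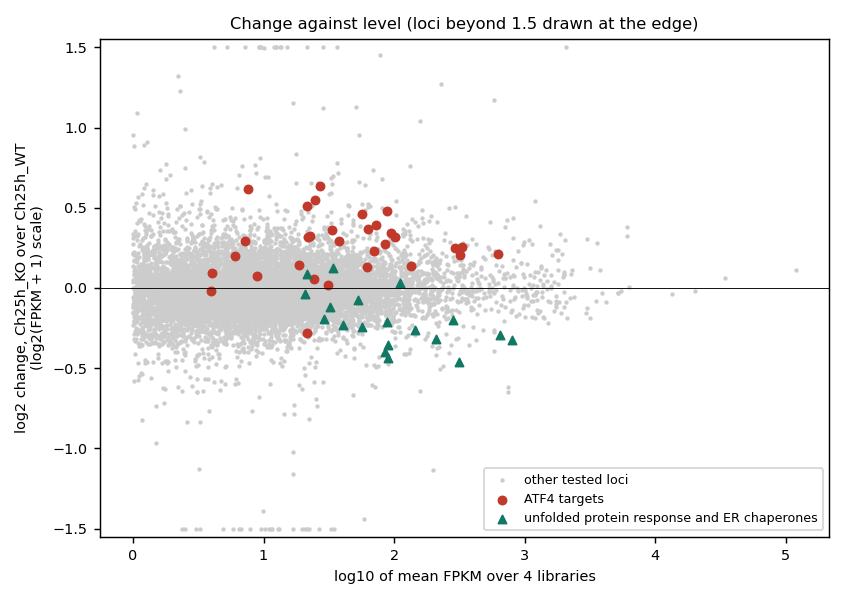
log2 change (Ch25h_KO over Ch25h_WT, log2(FPKM + 1) scale) against the log10 of the mean FPKM over 4 libraries, for the members (circles, labelled ATF4 targets), unfolded protein response and ER chaperone genes (triangles) and all other tested loci (grey). The members lie above 0 at high and low levels alike, except Aldh18a1 and Eif2ak4. Of the 19 triangles, 16 lie below 0 (5475 of all 10074 tested loci).

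Outside the members, the genes that act on eIF2 lay near the median of all loci as a list. The members Eif2ak4 and Ppp1r15a, with log2 changes of -0.019 and 0.29, were not in this list. Its 15 genes were for eIF2, its other kinases, regulators of GCN2, the phosphatases of eIF2 and its exchange factor. Of the 15, 0 passed the adjusted threshold in limma. At an unadjusted p under 0.05, 1 was higher and 1 lower (9.38% and 11.5% of all tested loci). The median log2 change of the 15 was -0.023. With limma's trend and robust options 1 gene of the 15 passed, on the higher side (4.04% of all tested loci). That was Ppp1r15b (CReP), the constitutive counterpart of Ppp1r15a as a phosphatase subunit for eIF2, at adjusted p = 0.0477. It was 62.4 and 65.5 FPKM in Ch25h_KO and 55.9 and 56.6 FPKM in Ch25h_WT. Eif2s3x, a subunit of eIF2, was 54.4 and 53.7 FPKM in Ch25h_KO and 60.4 and 60.3 FPKM in Ch25h_WT, and the exchange factor subunits Eif2b2 and Eif2b5 had log2 changes of 0.087 and -0.13. The other eIF2 kinases, named after their values were seen, had overlapping groups for Eif2ak3 (PERK) and Eif2ak2 (PKR), and a log2 change of 0.034 (SE 0.052) for Eif2ak1 (HRI).

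Of 27 tested further genes linked to ATF4, 9 of which are also on the tRNA synthetase list, 19 had a log2 change above 0. Of all 10074 tested loci, 4599 did. None of the 27 passed the adjusted threshold in limma. At an unadjusted p under 0.05, 11 were higher and 3 lower (9.38% and 11.5% of all tested loci), and the median log2 change was 0.095. With limma's trend and robust options 5 passed on the higher side and 2 on the lower (4.04% and 3.76% of all tested loci). Among them were Gdf15 (adjusted p = 0.00041), Nfil3 (0.0053) and Ero1l (0.0024). Gdf15, a stress cytokine, was 97.1 and 92.5 FPKM in Ch25h_KO and 67.9 and 65.6 FPKM in Ch25h_WT (ratio 1.42, log2 change 0.50, SE 0.058, limma adjusted p = 0.0656). Nfil3, a bZIP repressor, was 99.9 and 107 FPKM in Ch25h_KO and 84.2 and 82.5 FPKM in Ch25h_WT. Lower were Ero1l, an ER oxidase induced by CHOP and by hypoxia, at 43.6 and 42.5 FPKM in Ch25h_KO and 55.1 and 57.5 FPKM in Ch25h_WT, and Sesn3, at 2.46 and 2.53 FPKM in Ch25h_KO and 3.09 and 3.17 FPKM in Ch25h_WT. Atf3 and the cystine importer Slc7a11, both commonly counted as ATF4 targets and named after their values were seen, had log2 changes of -0.082 (SE 0.053) and 0.0064 (SE 0.057).

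Neighbouring metabolic lists lay near the median of all loci. At an unadjusted p under 0.05, 9.38% of all tested loci were higher and 11.5% lower. Among 11 tested folate and glycine enzymes outside the members, 1 was higher and 0 lower at that threshold (median log2 change 0.0032). That one was Mthfd2l, at 2.35 and 2.34 FPKM in Ch25h_KO and 1.97 and 1.85 FPKM in Ch25h_WT. Tyms and Mtr both had a log2 change of -0.18. Among 11 tested proline, glutamate and aspartate enzymes, 2 were higher and 2 lower at that threshold (median -0.063), with Got1 and Aldh4a1 higher (log2 change 0.23 and 0.15) and Oat and Glul lower (-0.18 and -0.14). Among 12 other amino acid transporters, 2 were higher and 3 lower (median -0.063), led by Slc38a1 and Slc15a3 on the higher side (0.27 and 0.14) and Slc16a10 and Slc6a6 on the lower (both -0.19). None of the genes in these lists passed the adjusted threshold in limma. With limma's trend and robust options 3 passed, all on the higher side (4.04% of all tested loci). These were Got1 (adjusted p = 0.0233), Slc38a1 (0.0208) and Slc15a3 (0.0497).

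**Figure D5:**
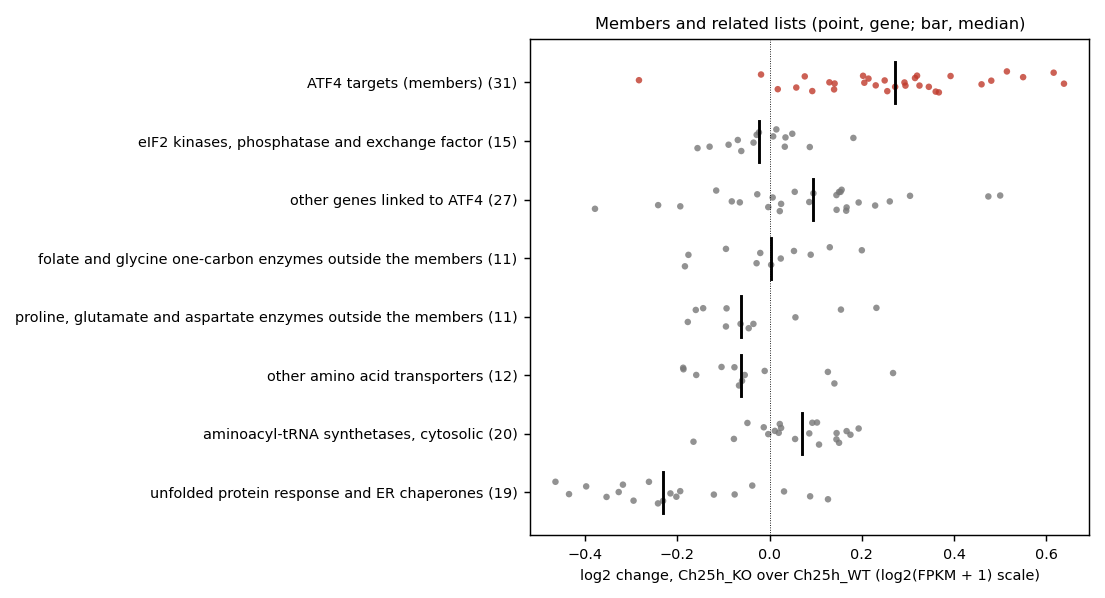
log2 change (Ch25h_KO over Ch25h_WT, log2(FPKM + 1) scale) of each tested gene in the members and in 7 related lists, with the number of tested genes in brackets and a bar at each median. The members' median is 0.27, that of the tRNA synthetases 0.070, and that of the unfolded protein response list -0.23.

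Cytosolic aminoacyl-tRNA synthetases, only some of which are on the list above of genes linked to ATF4, had a median log2 change of 0.070. Of the 20 genes, 15 were above 0 and 5 below (4599 and 5475 of all 10074 tested loci). Of the 20, 0 passed the adjusted threshold in limma, and 6 were higher and 1 lower at an unadjusted p under 0.05 (9.38% and 11.5% of all tested loci). With limma's trend and robust options Gars alone passed (adjusted p = 0.031), on the higher side, where 4.04% of all tested loci passed. Gars was 124 and 126 FPKM in Ch25h_KO and 106 and 113 FPKM in Ch25h_WT, and Yars was 42.1 and 42.5 FPKM in Ch25h_KO and 37.3 and 37.4 FPKM in Ch25h_WT. Kars and Dars had log2 changes of -0.17 and -0.078. The genes of ER folding, which answer to the ATF6 and XBP1 branches of the unfolded protein response, lay on the other side. Of the 19, 16 were below 0 (5475 of all 10074 tested loci), and the median log2 change was -0.23. None of the 19 passed the adjusted threshold in limma, and 12 were lower and 0 higher at an unadjusted p under 0.05. With the trend and robust options 11 passed on the lower side (3.76% of all tested loci) and 0 on the higher.

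The chaperone Hsp90b1 was 264 and 267 FPKM in Ch25h_KO and 367 and 366 FPKM in Ch25h_WT (log2 change -0.46, SE 0.051, limma adjusted p = 0.0656), and Pdia4 was 74.9 and 76.1 FPKM in Ch25h_KO and 100.2 and 105 FPKM in Ch25h_WT. Hspa5 (BiP), named with Xbp1 and Dnajb9 after their values were seen, was 710 and 716 FPKM in Ch25h_KO and 887 and 903 FPKM in Ch25h_WT (log2 change -0.33, SE 0.052, limma adjusted p = 0.0966). The groups overlapped for Xbp1, the transcription factor of the IRE1 branch (log2 change 0.031), and for the co-chaperone Dnajb9 (-0.076). Syvn1 and Ern1 were the most positive, at log2 changes of 0.13 and 0.088. Ddit3, a member that ER stress also induces, was thus on the higher side in the libraries in which these chaperones were lower. The differences between lists were not tested.

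In bulk RNA, fewer cells of a type and less RNA per cell cannot be told apart, and markers of other cells moved with the genotype in these libraries. The tested marker with the largest change was Ly6c2, a surface protein of inflammatory monocytes, named after its values were seen, at 14.3 and 17.3 FPKM in Ch25h_KO and 3.12 and 2.70 FPKM in Ch25h_WT (log2 change 2.10, SE 0.11, limma adjusted p = 0.0117). It was the one monocyte marker past the threshold, and reads may be split with its near-identical neighbour Ly6c1. The summed FPKM of 5 monocyte markers was 180 and 192 in Ch25h_KO and 146 and 151 in Ch25h_WT, of which Plac8 gave 73.6% to 78.1%, and the groups overlapped for Ccr2. The sum of 8 neutrophil markers was 117 and 117 in Ch25h_KO and 72.3 and 83.1 in Ch25h_WT. S100a8 alone gave 77.8% to 84.8% of it, at 99.0 and 98.7 FPKM in Ch25h_KO and 56.3 and 66.6 FPKM in Ch25h_WT, S100a9 had a ratio of 1.15, and the other 6 averaged under 1 FPKM. The sum of 5 dendritic cell markers was 29.3 and 25.7 in Ch25h_KO and 22.5 and 20.8 in Ch25h_WT, of which Cd209a gave 87.7% to 92.6%, while Zbtb46, the other one tested, had a log2 change of -0.081 with overlapping groups. The sum of 8 mast cell and basophil markers was 159 and 161 in Ch25h_KO and 226 and 231 in Ch25h_WT. Cma1 gave 36.0% to 38.3% of it and Tpsb2 22.3% to 26.5%, while the groups overlapped for Fcer1a (ratio 0.98) and Gata2 (1.02). For 5 B cell markers the sum was 285 and 300.3 in Ch25h_KO and 317 and 321 in Ch25h_WT, with overlapping groups for Pax5 (ratio 1.23). The sum of 6 T and NK cell markers was 3.30 and 4.53 in Ch25h_KO and 2.72 and 3.20 in Ch25h_WT, and that of 4 eosinophil markers, with Epx at 0 in every library, was 0.436 and 0.577 in Ch25h_KO and 0.730 and 0.561 in Ch25h_WT. For 6 mesothelial and fibroblast markers it was 1.78 and 1.81 in Ch25h_KO and 0.603 and 0.755 in Ch25h_WT. The 8 macrophage markers had a median log2 change of -0.029, with 2 above 0 and 6 below (4599 and 5475 of all 10074 tested loci). Cd14 had the largest log2 change of the 8, 0.38, at 6870 and 6751 FPKM in Ch25h_KO and 5178 and 5288 FPKM in Ch25h_WT. Emr1 and Csf1r had both Ch25h_KO libraries below both Ch25h_WT libraries (30.3% of all tested loci). Emr1 was 381 and 388 FPKM in Ch25h_KO and 418 and 425 FPKM in Ch25h_WT. For Csf1r the values were 274 and 291 FPKM in Ch25h_KO and 306 and 316 FPKM in Ch25h_WT. The part of these cells in the members' values was not tested.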

How the data were processed

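Per the submitters' processing notes, the authors used bcl2fastq, TopHat2 2.0.14, Cufflinks 2.2.1 and build mm9, and other details (settings, annotation, strand) were not stated. The deposited values fit FPKM in range and decimals, although the header names no unit. The 24192 lines gave 23735 loci after lines of one locus were joined, and the number of unused columns of per-sample values was 0. Ratios among values under 0.5 FPKM gave the relative depth of the libraries, with which 93.2% of 2274 low loci held whole fragments (tolerance 0.02), and 421 loci with transcript lengths from GENCODE vM21 set its absolute size. The mean chi-square per low locus, 1 under sampling noise alone, was 1.23 within each group and 1.23 to 1.41 between libraries of different groups. No library thus looked like a second deposit of another, which does not show that the libraries are biological replicates.

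The genotypes were compared in R 4.3.3 with limma 3.58.1, on a scale of log2(FPKM + 1) that understates changes of low genes. The fit took 10074 loci averaging 1 FPKM or more, with Benjamini-Hochberg adjustment over all of them and 0.05 as the threshold. It was also run on simulated data, with changes larger than those of most members. That run therefore does not show how the fit does at the members' sizes of change. FPKM are not counts, so count models were not used. Named genes are all members, Ch25h and Apoe, the genes with the smallest p in each list (at most 2 higher and 2 lower), the 2 leading markers (for some of the lists), and genes said to be chosen after their values were seen. The markers Ccr2, Fcer1a, Gata2, Pax5, Epx, Emr1 and Csf1r were also named after their values were seen. Members and lists were chosen with earlier results of these data known. Some genes of these lists are not reported here.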

Additional observations from a re-analysis of the deposited data

How the results depend on the processing

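Of the 12 other settings, 8 can change a member's log2 change (pseudocount, scaling or a library left out), and under these all 31 tested members except Eif2ak4 kept their direction. The number of loci past the threshold, 44 with the settings of the report, was 317 with a pseudocount of 5, 18 with no filter on low values, 175 when the filter was raised to 5 FPKM, 786 with limma's trend and robust options and 13 to 21 with a library left out. The number of members past it, 1 in the report, was 0 with a pseudocount of 0.1 or no filter, 14 with a pseudocount of 5, 8 among loci of at least 5 FPKM, 21 with the trend and robust options, and 0 with any library left out, where the lone library is assumed to vary like the others. The members' median log2 change of 0.27 was 0.252 with a pseudocount of 5, 0.249 with no filter, 0.292 among loci of at least 5 FPKM, 0.288 with median-of-ratios scaling and 0.27 to 0.30 with a library left out. No scaling moved the median of all loci by over 0.015. With the replicate block, 6 loci and 0 members passed. The labels state no pairing of same-numbered libraries. The correlation of their deviations, 0.012, cannot show whether a pairing existed, so the block is not read as one. The composite element was found in 5 members with the narrower letters. The cause of these shifts was not tested. Depth limits Cbs, Vldlr, Pycr1 and Slc7a3, and 2 libraries per group limit every adjusted p.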
